A study of Mus musculus with 12 samples.

Results

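Prostaglandins are short-lived lipid signals made from arachidonic acid, which phospholipases A2 release from membranes and the cyclooxygenases Ptgs1 and Ptgs2 turn into the common precursor PGH2. Terminal synthases then make each prostanoid, which acts through its own receptors and is broken down inside cells. In skin, PGD2 is known for its link to reduced hair growth, analogues of PGF2α are known to lengthen eyelashes, and minoxidil, a topical drug for hair loss, has been described as acting on Ptgs1. The present description follows 10 genes of this pathway of the 27373 gene names on the array: the cyclooxygenases Ptgs1 and Ptgs2, the synthases Ptgds, Ptges and Ptgis, the PGE2 receptors Ptger2, Ptger3 and Ptger4, the PGF2α receptor Ptgfr and the degrading enzyme Hpgd. They were found by the gene name the scanner files give each probe, which gave 16 of 41174 distinct probes, and each gene was represented by its brightest probe.

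The RNA came from shaved back skin of male C57BL/6J mice aged 8 weeks, which received 200 µL daily of 3% minoxidil (MXD), of 10% cell extract of the cactus Notocactus ottonis (N-CE), or of the vehicle alone (VC: propylene glycol, ethanol and water at 5:3:2). Skin was taken after 1, 2 or 3 weeks (1W, 2W, 3W). RNA of the 6 mice of a group was pooled, and each treated pool was set against the VC pool of its week on 2 two-colour arrays, treated in Cy5 on array 1 and in Cy3 on array 2, which made 6 comparisons on 12 arrays. A group is therefore 1 pool without biological replicates, every ± below is, unless named SE, the SD between both arrays of its dye swap (n = 2), and it measures technical spread only. The MXD and N-CE arrays of a week shared 1 slide and 1 VC pool, so week and slide cannot be told apart.

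Between 57.0% and 69.6% of the spots were well above background per group and array. The arrays of a dye swap correlated over bright probes at r = 0.573, 0.706 and 0.263 in MXD 1W, 2W and 3W and at 0.603 and 0.353 in N-CE 1W and 3W, but at -0.169 in N-CE 2W, whose arrays did not repeat each other. Markers of the labelled tissue were present, with signal from epidermal keratinocyte, fibroblast and hair follicle lists in every comparison. The same VC pool, read on the MXD and on the N-CE arrays of a week, differed for the 10 genes by -0.40 (Ptgis, 2W) to 0.32 (Ptgfr, 2W) log2 units, with Ptgis at 3W left out because VC was not well above background there on the MXD arrays.

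A gene was called where each array of the dye swap had P under 0.01 by the scanner software, with 1 direction in both, and the mean fold was above 1.5 (up-regulated) or below 0.75 (down-regulated). That P comes from the error model of the spots and says nothing of differences between mice. Under this rule 7 of the 10 prostaglandin genes were called in MXD 2W, where 11.1% of all gene names were. Of these, 5 were down-regulated (6.87% of all gene names) and 2 were up-regulated (4.26%). In N-CE 1W, 2 of 10 were called against 2.22% of all gene names, 1 up (0.362%) and 1 down (1.85%). MXD 3W gave 1 call among the 9 genes measured on both arrays, against 0.37% of all gene names in either direction and 0.187% up. No prostaglandin gene was called in MXD 1W, N-CE 2W or N-CE 3W, where 1.7%, 0.132% and 0.29% of all gene names were. The median log2 ratio of the 10 genes was -0.79 in MXD 2W and 0.30 in N-CE 1W, beside 0 for all gene names in both. That 0 is set by the processing, since dye normalization centres the ratios. On the arrays of these comparisons, 14.0% to 16.3% of the ratios were also exactly 0. With another background correction (normexp, then loess) these medians were -0.40 and 0.10. Of the 10 genes, 8 lay below VC in MXD 2W and 8 lay above it in N-CE 1W, called or not. The 8 in N-CE 1W include Ptgs2 at 0.08 and Ptges, whose arrays read -0.001 and 0.16. They also include Ptgis, near background, whose arrays read 0.13 and 1.20. No share of all gene names stands beside these counts of direction.

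The count in MXD 2W was 7 on array 2 alone and 9 on array 1 alone, which added Ptgs2 and Ptger2 as lower. With 1 array of the dye swap left out, MXD 1W gained 1 call (Hpgd, higher on array 2 alone) and N-CE 2W gained 3 (Ptgs1 and Ptger3 lower and Ptgds higher, on array 1 alone).

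**Figure D1:**
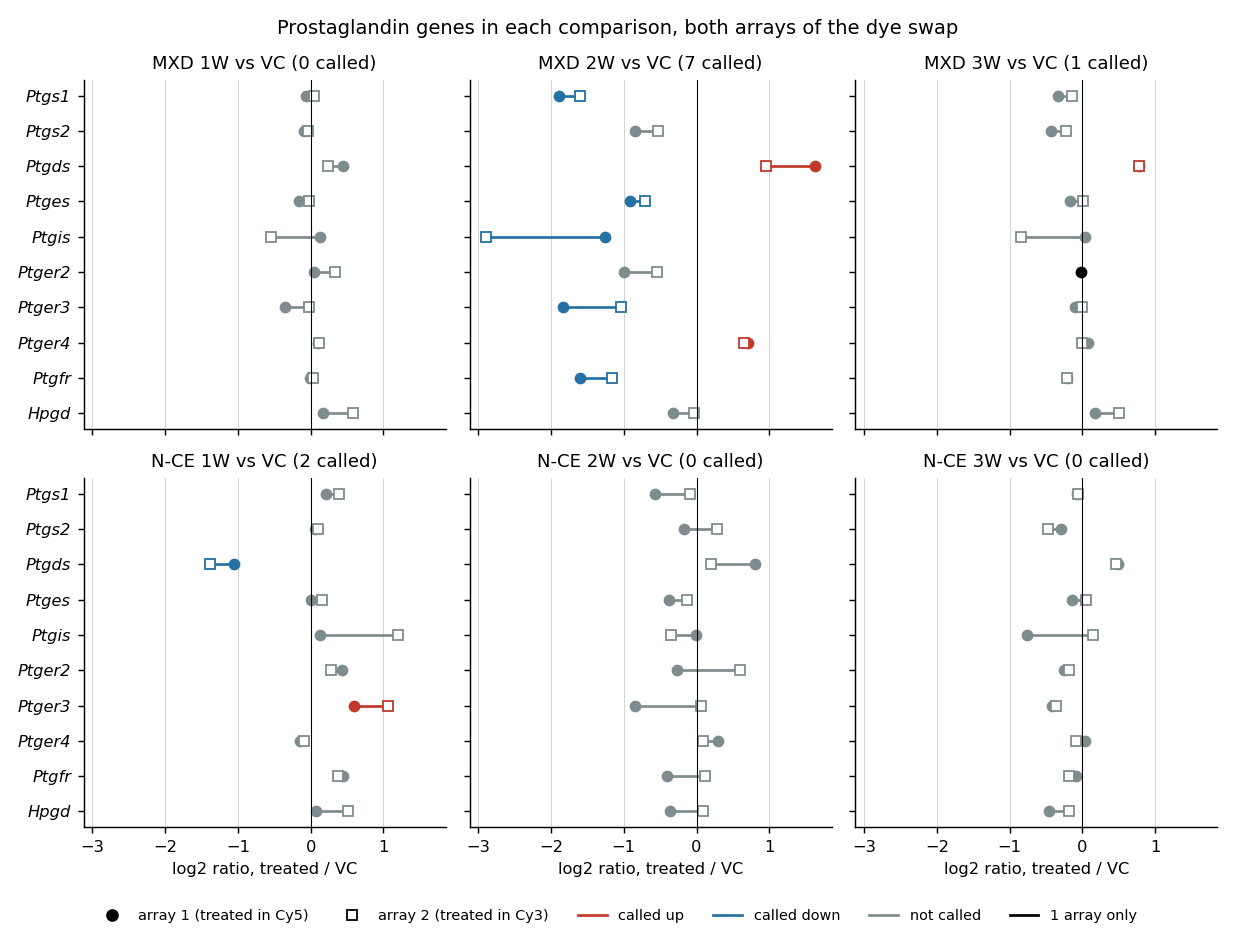
Log2 ratio of treated over VC (x axis) for the 10 prostaglandin genes (y axis) in each of the 6 comparisons, with a filled circle for array 1 (treated in Cy5), an open square for array 2 (treated in Cy3) and a line joining them. Red and blue mark the calls, which lie in MXD 2W (7), N-CE 1W (2) and MXD 3W (1), and the black point is Ptger2, measured on 1 array in MXD 3W. Ptgis is plotted in MXD 3W although neither pool was well above background there.

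Ptgs1 is the constitutive cyclooxygenase. In MXD 2W its processed signal was 4361 and 3241 in the MXD pool and 16124 and 9829 in the VC pool. Both MXD readings were below both VC readings, and below the 10496 and 10821 that the same VC pool gave on the N-CE arrays. The ratio was 0.299-fold (log2 -1.74 ± 0.20), called down-regulated. Other weeks and N-CE gave mean log2 ratios between -0.33 (N-CE 2W) and 0.30 (N-CE 1W), none of them called.

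Ptgs2 is the inducible cyclooxygenase. Its probe was printed 10 times on each array and was dim, at 69.7 to 195 in all readings of the 6 comparisons. MXD 2W gave 109 and 84.8 against 195 and 123 in VC, with log2 -0.69 ± 0.22. Both arrays were lower, but P was 0.000656 on array 1 and 0.0514 on array 2, and Ptgs2 was not called. Normexp and loess moved the value to -0.31, and the second Ptgs2 probe read -0.40 ± 0.13.

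Ptgds, the lipocalin-type synthase of PGD2, was called in 3 comparisons, the most of the 10 genes, and lay on opposite sides of VC in the treatments at 1W. The probe that measured it reaches the end of the coding sequence and is shown because every Ptgds value below rests on it; it lies at chr2:25322842-25323373 of mm9 on the minus strand, spread over 532 bases of the genome, and capitals mark the stop codon.
Ptgds probe: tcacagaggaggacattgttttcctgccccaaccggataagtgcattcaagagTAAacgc

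In MXD 2W the Ptgds signal was 16897 and 11168 in MXD against 5460 and 5788 in VC. Neither MXD reading overlapped VC, and the ratio was 2.44-fold (log2 1.29 ± 0.48), called up-regulated. In MXD 3W it was 5650 and 5781 against 3295 and 3365, or 1.72-fold (log2 0.78 with both arrays within 0.01 of each other), again up-regulated. In MXD 1W the arrays gave log2 0.45 and 0.24, not called.

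N-CE 1W went the other way. Ptgds was at 1011 and 916 in N-CE and at 2094 and 2400 in VC, 0.429-fold (log2 -1.22 ± 0.24), and was called down-regulated. In N-CE 2W the arrays gave log2 0.80 and 0.21 and in N-CE 3W 0.49 and 0.46, all above 0 and neither week called. Ptgds was thus lower than VC in N-CE at 1W only, while every MXD array of every week read above VC.

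Ptges, the inducible synthase of PGE2, was down-regulated in MXD 2W. The signal was 635 and 599.8 in MXD and 1191 and 984 in VC, 0.57-fold (log2 -0.81 ± 0.14). No other comparison called it, and its other mean log2 ratios lay between -0.25 (N-CE 2W) and 0.08 (N-CE 1W).

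Ptgis, the synthase of prostacyclin, was measured near the background. Its probe was well above background in 17 of 24 readings, lies at chr2:167032305-167032364 of mm9 on the minus strand and is shown as the weakest reading among the calls.
Ptgis probe: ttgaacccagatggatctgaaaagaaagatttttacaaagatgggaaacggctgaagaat

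In MXD 2W Ptgis read 30.5 and 9.27 in MXD, above background on 1 of the 2 arrays, and 73.0 and 68.9 in VC, above background on both. The log2 ratio was -2.08 ± 1.15 and was called down-regulated, with the widest spread between arrays of the calls. With normexp and loess it was -0.50, so that its size rests on the background correction. In N-CE 1W the log2 ratio of Ptgis was 0.66 (1.58-fold), with 0.13 on array 1 and 1.20 on array 2. It was not called, VC was well above background on 1 of the 2 arrays, and normexp and loess gave 0.11. In MXD 3W neither pool was well above background for Ptgis, and no fold is given there.

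**Figure D2:**
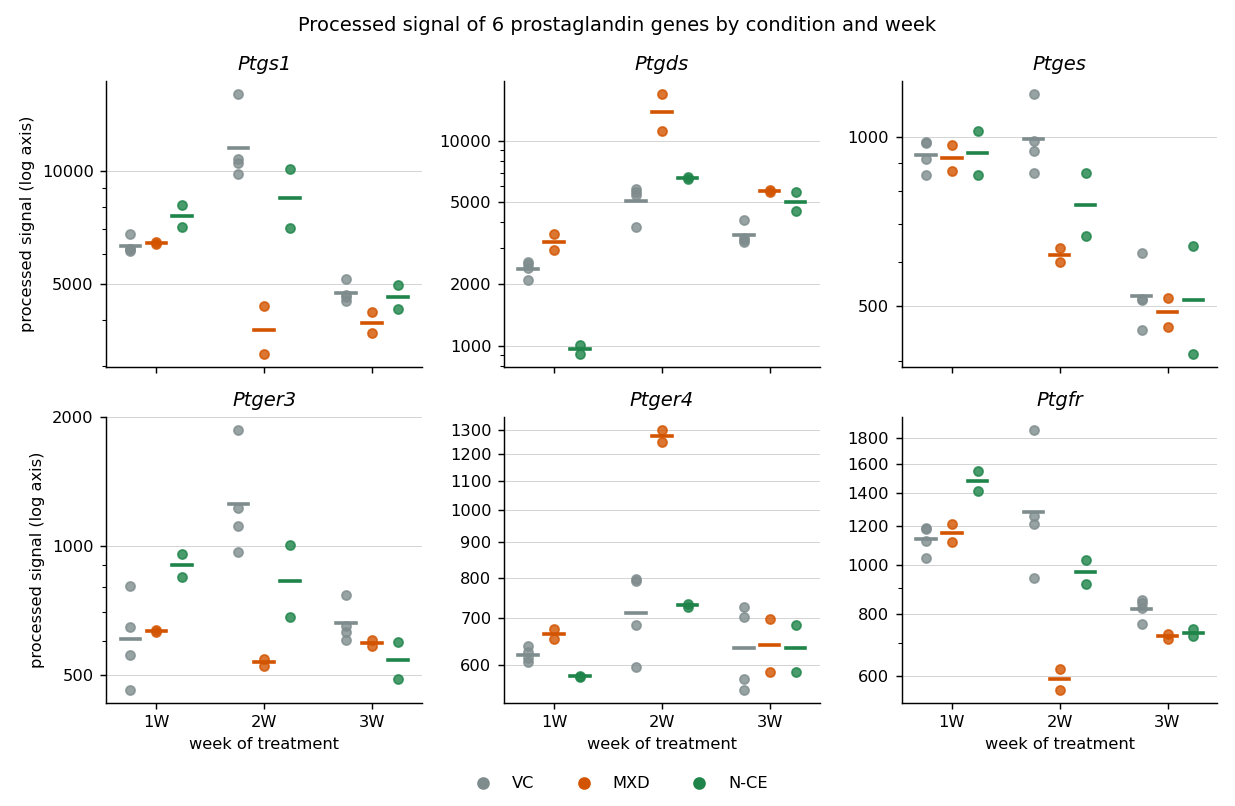
Processed signal (y axis, log scale, different range in each panel) of Ptgs1, Ptgds, Ptges, Ptger3, Ptger4 and Ptgfr at 1W, 2W and 3W (x axis). Each point is 1 reading of a pool (4 for VC, 2 for MXD and 2 for N-CE) and each bar the geometric mean of the readings. At 2W both MXD readings lie outside the range of the VC readings in all 6 panels. They lie above it for Ptgds and Ptger4 and below it for the others. The genes shown are those called in MXD 2W other than Ptgis, so this separation largely follows from the choice of genes. Of the genes not shown, only the Hpgd readings overlapped at 2W (2990 to 3621 in MXD, 3004 to 4550 in VC).

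Ptger3, the PGE2 receptor that couples to inhibition of adenylyl cyclase, moved in opposite directions in MXD 2W and N-CE 1W. Its brightest probe lies at chr3:157307508-157307567 of mm9 on the plus strand.

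In MXD 2W the brightest Ptger3 probe read 524 and 543 in MXD and 1869 and 1112 in VC. Both MXD readings were below both VC readings, at 0.37-fold (log2 -1.43 ± 0.57), called down-regulated. A second Ptger3 probe gave 82.5 and 81.5 against 179 and 183, log2 -1.14 ± 0.03, and was called too. In N-CE 1W the brightest probe read 845 and 959 against 556 and 461, 1.78-fold (log2 0.83 ± 0.32), called up-regulated, and the second probe read 0.75 ± 0.13 and was called. N-CE 3W gave log2 -0.41 and -0.37 without a call. The remaining Ptger3 probe was well above background in 2 of 24 readings and measured nothing usable.

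Ptger4, a PGE2 receptor that raises cyclic AMP, was the only receptor of the 4 above VC in MXD 2W. The signal was 1299 and 1249 in MXD and 797 and 791 in VC, 1.6-fold (log2 0.68 ± 0.03), called up-regulated. With normexp and loess the log2 ratio was 0.55, under the fold of 1.5, and the call was lost. Every other mean log2 ratio of Ptger4 lay between -0.11 (N-CE 1W) and 0.19 (N-CE 2W). Another Ptger4 probe was above background in 0 of 24 readings.

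Ptger2, which also raises cyclic AMP, was called in no comparison. In MXD 2W it read 60.8 and 46.7 in MXD and 121 and 68.2 in VC (log2 -0.77 ± 0.31). Both arrays were lower, and the scanner software's P was 0.000404 on array 1 but 0.114 on array 2. Array 2 of MXD 3W held an outlier spot, so Ptger2 had 1 array there (log2 -0.02) and was left out of the fits across weeks for MXD. Its signal at 3W was 201 to 282 in all pools, against 46.7 to 121 at 1W and 2W; the 3W arrays were a slide of their own.

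Ptgfr, the receptor of PGF2α, was down-regulated in MXD 2W, at 619 and 563 in MXD and 1872 and 1259 in VC. The readings did not overlap, and the ratio was 0.384-fold (log2 -1.38 ± 0.31). The second Ptgfr probe read 162 and 155 against 447 and 297, log2 -1.20 ± 0.38, and was called as well. In N-CE 1W Ptgfr read 1414 and 1548 against 1034 and 1188, log2 0.42 ± 0.05. Both N-CE readings were higher, but the fold of 1.34 was below the threshold and the scanner software's P was 0.0301 and 0.0652.

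Hpgd, the dehydrogenase that begins prostaglandin breakdown, was called nowhere. Its signals were among the brighter ones, 1793 to 4550, and its mean log2 ratios ran from -0.32 (N-CE 3W) to 0.38 (MXD 1W). In MXD 2W, with 7 of the other 9 genes called, Hpgd read 3621 and 2990 against 4550 and 3072 (log2 -0.18 ± 0.21), a difference within the spread of the arrays. The second Hpgd probe gave -0.08 ± 0.06 there.

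MXD and N-CE of a week were read against the same VC pool, and their values are set side by side with the SE over the arrays. At 1W the log2 ratio of Ptgds was 0.34 in MXD and -1.22 in N-CE, a difference of 1.56 ± 0.20 (SE). For Ptger3 it was -0.19 and 0.83, a difference of -1.02 ± 0.28 (SE). At 2W, where the N-CE arrays did not repeat each other, MXD minus N-CE was -1.41 ± 0.28 (SE) for Ptgs1 and -1.24 ± 0.34 (SE) for Ptgfr. At 3W the differences of the genes other than Ptgis lay between -0.17 (Ptgs1) and 0.66 (Hpgd).

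Across the 3 weeks, used as replicates because no group had more than 1 pool, limma with Benjamini-Hochberg adjustment called 0 of 41068 probes for MXD, 0 of 40895 for N-CE and 0 of 40820 for the difference between them. Unadjusted p under 0.05 was reached by 3098, 1490 and 2021 probes, among them the Ptgds probe for MXD and no other of the 10 genes in any of these 3 fits. The mean over weeks of Ptgds was 0.80 ± 0.23 (SE) in MXD, with a limma adjusted p = 0.626 and a ratio above VC in 3 of 3 weeks. In N-CE it was -0.08 ± 0.49 (SE) with adjusted p = 1 in limma. MXD minus N-CE for Ptgds was 0.89 ± 0.31 (SE), above 0 in 3 of 3 weeks, with a limma adjusted p = 0.75. A change present in 1 week enters the spread of these fits, as for Ptgs1, whose mean in MXD was -0.66 ± 0.46 (SE).

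Beyond the 10 genes, 48 other genes of prostanoid and leukotriene metabolism were on the array. Measured genes were those well above background in at least 1 reading of a comparison, a filter that the shares of all gene names lack. In MXD 2W, 17 of the 43 measured were called, against 11.1% of all gene names. Of these 4 were up (4.26% of all gene names) and 13 down (6.87%), and the median log2 ratio of the 43 was -0.25. Among the phospholipases A2, which release arachidonic acid, Pla2g4b (log2 1.24 ± 0.27) and Pla2g2e (1.20 ± 0.68) were up-regulated and Pla2g5 (-1.25 ± 0.08) was down-regulated.

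Other synthases that were down-regulated in MXD 2W were Hpgds, the haematopoietic PGD2 synthase, Prxl2b, a PGF2α synthase, and Akr1c18, a steroid and prostaglandin reductase. Hpgds read 272 and 236 against 769 and 499 (log2 -1.29 ± 0.29), opposite to Ptgds, which makes the same prostanoid. Prxl2b gave -0.93 ± 0.27 and Akr1c18 -0.62 ± 0.04. The nuclear receptor Pparg (-0.92 ± 0.20) and the prostacyclin receptor Ptgir (-0.81 ± 0.04, and -0.34 with normexp and loess) were lower as well, as were the exporter Abcc4 (-1.01 ± 0.29) and the reductase Ptgr1 (-0.74 ± 0.25).

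Among the leukotriene genes and lipoxygenases, 5 were down-regulated in MXD 2W. Alox5, which starts leukotriene synthesis, read -1.25 ± 0.20, its activating protein Alox5ap -0.84 ± 0.14, the LTC4 synthase Ltc4s -0.96 ± 0.21 and the receptor Cysltr1 -1.03 ± 0.11. The epidermal lipoxygenase Aloxe3 was at -1.07 ± 0.53. Of the other lipoxygenases, Alox12 (0.61 ± 0.08) and Alox8 (1.27 ± 0.20) were up-regulated.

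In N-CE 1W, 2 of 43 measured pathway genes were called, both down, against 1.85% of all gene names down and 2.22% in either direction. Both were up-regulated in MXD 2W. Pla2g4b read 340 and 332 against 637 and 630 in VC (log2 -0.91 ± 0.02). Alox8 read 43.4 and 19.2 against 147 and 149 (log2 -2.37 ± 0.82), with N-CE above background on 1 of 2 arrays and -0.78 with normexp and loess. Alox8 was also the 1 pathway gene of 43 measured that was called in MXD 1W, up by 0.62 ± 0.08, where 1.7% of all gene names were called. MXD 3W, N-CE 2W and N-CE 3W had 0 calls among the other pathway genes. Of all gene names 0.37%, 0.132% and 0.29% were called there.

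**Figure D3:**
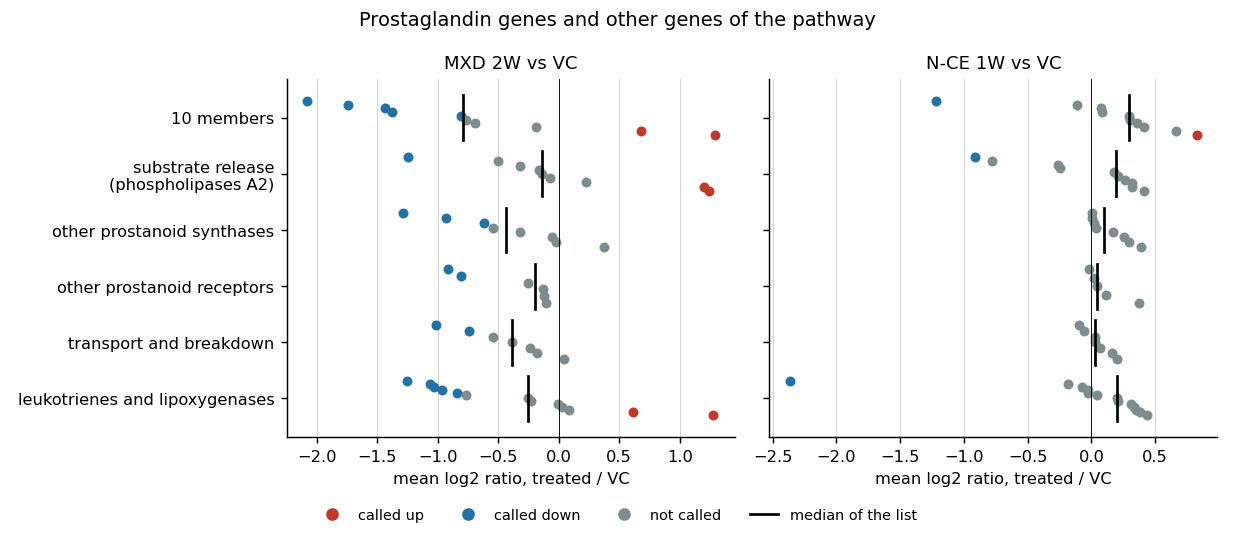
Mean log2 ratio of treated over VC (x axis, 1 point a gene) for the 10 prostaglandin genes and 5 lists of other pathway genes (y axis) in MXD 2W and N-CE 1W, with the median of each list as a black bar. In MXD 2W the medians of all lists lie below 0, from -0.79 for the 10 genes to -0.14 for the phospholipases A2, while in N-CE 1W they lie above 0.

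Whole skin holds many cell types, and in pooled tissue RNA fewer cells of a type and less RNA per cell cannot be told apart. In MXD 2W all 8 markers of hair follicle matrix and shaft were up-regulated (median log2 1.19), with a summed signal of 724677 to 813594 in MXD and 293304 to 355155 in VC. All 6 melanocyte markers were up as well (median 1.26, summed 78028 to 90295 against 30687 to 42632). Ptgds and Ptger4 were up-regulated in that comparison.

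Downward in MXD 2W were all 8 skeletal muscle markers (median -1.46, summed 171946 to 308246 against 550091 to 691014). Of the fibroblast markers 4 of 7 were down (median -0.86, summed 270946 to 391828 against 523151 to 663717). Adipocyte markers were down in 5 of 7 (median -0.79, summed 162284 to 206275 against 232861 to 299445), macrophage markers in 4 of 7 (median -0.74), T cell markers in 3 of 5 (median -1.07, and -0.45 with normexp and loess) and endothelial markers in 3 of 8 (median -0.49). Ptgs1, Ptges, Ptgis, Ptger3 and Ptgfr were down-regulated beside them. Calls in the other lists were 3 down and 1 up of 6 epidermal keratinocyte markers (median -0.61), 2 down and 1 up of 7 mast cell markers (-0.51), 2 up of 6 dermal papilla markers (0.91, and 0.49 with normexp and loess), 2 down of 4 smooth muscle markers (-0.26), 1 down of 5 sebocyte markers (-0.29) and 1 up of 5 neutrophil markers (-0.08, and -0.03 with normexp and loess). Of all list markers on the array, Camp and Ltf, both of the neutrophil list, were not well above background in either pool. The part of these cell types in the prostaglandin values was not tested.

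In N-CE 1W the hair follicle list was reversed, with 8 of 8 markers down (median -2.53, summed 35218 to 48294 in N-CE and 248808 to 293743 in VC). Melanocyte markers were down in 5 of 5 measured (median -1.81, summed 5645 to 5853 against 17592 to 19214), and dermal papilla markers in 3 of 5 (median -1.24, and -0.58 with normexp and loess). Ptgds was down-regulated in that comparison. No marker of the skeletal muscle, fibroblast, adipocyte, macrophage or T cell lists was called there, and the medians of these lists lay between -0.10 (skeletal muscle) and 0.45 (T cell, 0.26 with normexp and loess). Outside the hair follicle, melanocyte and dermal papilla lists, 1 neutrophil marker of 4 measured was called, up (list median 0.33, and 0.15 with normexp and loess). Rspo3, Tyr, Camp, Ltf and Cxcr2 were not well above background in either pool of N-CE 1W. In MXD 3W, where Ptgds was the 1 prostaglandin gene called, 5 of 6 melanocyte markers were up (median 0.70), 3 of 8 skeletal muscle markers were down (median -0.44, all 8 below 0) and 0 of 8 hair follicle markers were called (median 0.13). The other lists had no calls in MXD 3W, where 0.37% of all gene names were called. Comparisons without a prostaglandin call had marker calls too. In MXD 1W, 5 of 8 skeletal muscle markers were down and 1 up, and 3 of 5 melanocyte markers were up (median 0.72). There, 3 of 7 neutrophil and 1 of 8 hair follicle markers were up and 1 of 5 sebocyte markers was down. N-CE 2W had 1 skeletal muscle and 1 adipocyte marker down, and N-CE 3W 1 skeletal muscle marker down and 1 melanocyte marker up. The part of these cell types was not tested in these comparisons either.

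**Figure D4:**
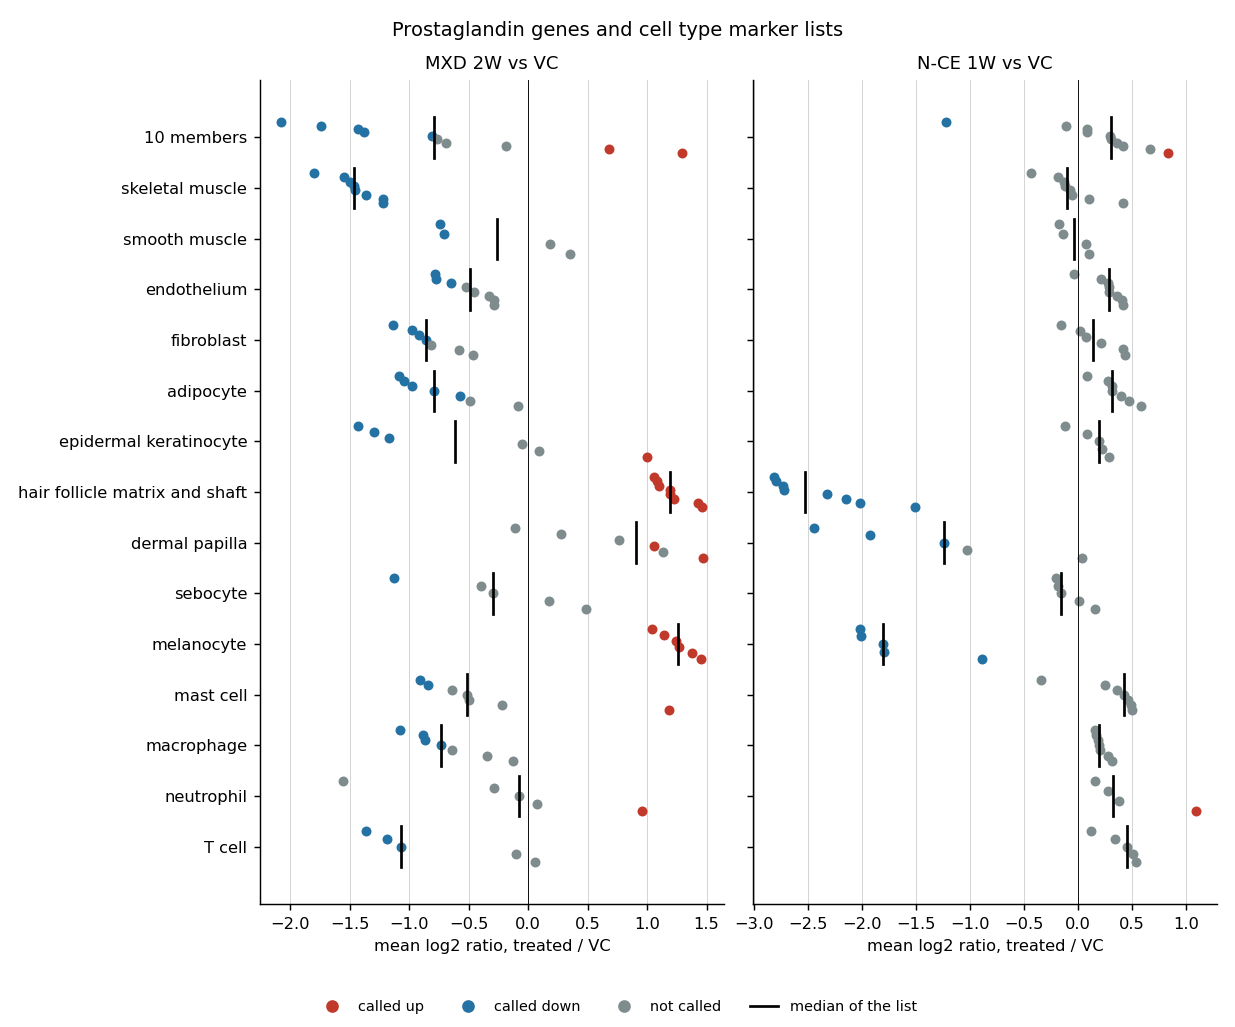
Mean log2 ratio of treated over VC (x axis, 1 point a gene) for the 10 prostaglandin genes and 14 cell type marker lists (y axis) in MXD 2W and N-CE 1W, with list medians as black bars. Hair follicle and melanocyte lists lie to the right in MXD 2W (medians 1.19 and 1.26) and to the left in N-CE 1W (-2.53 and -1.81).

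Over the 12 arrays, the genes whose log2 ratios ran most like a prostaglandin gene were sought among 14621 genes well above background throughout. For Ptgds they were Mcm5 (Pearson's r = 0.989), Slc7a1 (0.989) and Krtap5-2 (0.989), for Ptgs1 Oas1f (0.992), Agpat4 (0.991) and Lce1a1 (0.989), and for Ptger3 B3galt2 (0.986) and Tspan8 (0.983). Those of Ptgfr were Aida (0.988), Scrn1 (0.987) and Rcan2 (0.987), and those of Ptges were Arap3 (0.981), Kazald1 (0.979) and Trim47 (0.978). For Ptgis they were Leprot (0.937), Ctsk (0.936) and Scara3 (0.924), and for Ptger4 Ppp2r1b (0.984), NAP014233-001 (0.978) and 2310007B03Rik (0.974). The 12 arrays share VC pools and dye swaps, so these values are a description.

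Promoter sequence was looked at because 7 of the genes were called in the same comparison. RefSeq windows of GRCm38.p6, 250 bases before to 50 after a start, were found for 9 of the 10 genes and not for Ptgis. For each of these genes 1 window, the first listed, was searched, and any other start was not. The shares over all windows were not limited in this way. The letters GGGCGG, searched on both strands, occurred in 6 of the 9 windows (Hpgd, Ptger3, Ptger4, Ptges, Ptgfr and Ptgs2) and in 35.7% of 32851 windows. Of these 6 genes Hpgd and Ptgs2 were not called in MXD 2W, while Ptgs1 and Ptgds were called and had no match in the window searched. The 6 windows held 54.3% (Ptgfr) to 67% (Ptger4) G and C, beside a median of 52.7% over all windows. The part of base content in the matches was not tested. TATAAA occurred in 1 of the 9 windows (Hpgd, after the start) and in 13.6% of all windows, CCAAT in 2 (Ptger2 and Ptger4) and 37.4%. TGANTCA occurred in 1 (Ptgds) and in 7.81%. No match of one motif overlapped a match of another, and TGANTCA reads the same on both strands.

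Ptgfr and Ptger4 are shown because they were called in opposite directions in MXD 2W while both windows held GGGCGG. The 150 bases before each start are given in the direction of the gene, Ptgfr from chr3:151837529-151837678 and Ptger4 from chr15:5244188-5244337, both on the minus strand, and capitals mark GGGCGG on either strand. A further match in the Ptgfr window spans the start and is not shown.
Ptgfr upstream: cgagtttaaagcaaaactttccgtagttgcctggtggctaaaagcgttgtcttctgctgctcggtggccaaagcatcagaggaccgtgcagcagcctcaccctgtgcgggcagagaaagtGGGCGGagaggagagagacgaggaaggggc
Ptger4 upstream: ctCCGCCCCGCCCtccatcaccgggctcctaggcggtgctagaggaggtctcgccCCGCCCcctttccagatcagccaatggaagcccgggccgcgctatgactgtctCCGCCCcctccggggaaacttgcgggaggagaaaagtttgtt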

How the data were processed

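Pooled total RNA of back skin was hybridised to 12 Agilent two-colour 4x44K arrays. The authors deposited scanner files in which Feature Extraction (12.0.3.1 per the file headers, 11.0.1.1 in the submitters' processing notes) gave background-subtracted, LOWESS dye-normalized intensity values per channel, a log10 ratio of Cy5 over Cy3 and a p-value of that ratio from its error model. Probe positions in the headers are on mm9. From the deposited log10 ratio, log2 ratios of treated over VC were computed with the sign turned on Cy3-labelled arrays, outlier spots left out, copies of a probe averaged and the dye swap averaged. Fold and P thresholds were 1.5, 0.75 and 0.01, as the study used. The deposited series table held the same processed ratio on the log10 scale and served as an alternative. Weekly ratios were fitted across all probes with limma 3.58.1 (R 4.3.3), adjusted by Benjamini-Hochberg. Background correction with normexp (offset 50) and loess, other probes, each array alone and left-out weeks were alternatives. The procedures were tested on simulated data. The number of arrays limits the precision. The 10 genes and all lists (prostanoid and leukotriene metabolism, and markers of 14 cell types) were chosen with earlier results of these data known. All 10 genes were named, with every pathway gene called in any comparison and the 3 genes most like each called gene. Among the genes most like Ptger3, 1 is not reported here. Pla2g4d, Awat1 and Ly6g had no matching name on the array.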

Additional observations from a re-analysis of the deposited data

Results flagged for a closer look

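Among the comparisons of a gene within 1 week or within 1 treatment, there were 5 pairs in which both arrays of one lay above VC and both arrays of the other below it, with at least 1 of them called, and the difference within each pair was not tested. Ptgds in N-CE at 1W lay below N-CE at 2W by -1.72 log2 units and below N-CE at 3W by -1.69. At 1W, Ptgds in MXD lay above N-CE by 1.56. Ptger3 in N-CE at 1W lay above N-CE at 3W by 1.22, and Ptger3 in MXD at 1W below N-CE at 1W by -1.02. Over the 3 weeks together, limma gave an adjusted p = 0.75 for MXD against N-CE for both Ptgds and Ptger3.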

How the results depend on the processing

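The count of 7 prostaglandin genes called in MXD 2W lay between 6 and 9 under every alternative run, and between 7 and 9 on 1 array of the dye swap. Averaging all probes of a gene left 1 call in N-CE 1W (Ptgds), since the dim probe of Ptger3 entered its mean. Each array alone gave 0 to 1 calls in MXD 1W and 0 to 3 in N-CE 2W, and the counts of 1, 2 and 0 in MXD 3W, N-CE 1W and N-CE 3W held on each array. The other alternatives, outlier spots kept and the series table included, kept these 6 counts within 1.5 times. In limma, 0 of the 10 genes passed with every alternative, leaving out each week, the slide as a random block (correlation 0.131) and no replicate block between MXD and N-CE (0 genes) included. Unadjusted limma p under 0.05 was reached by 0 to 2 of the 10 genes for MXD, by 0 to 3 for N-CE (3 without week 1) and by 0 to 3 for the difference (Ptgds, Ptgs1 and Ptgfr with normexp and loess). Dropping probes of equal weekly ratios was chosen after seeing the data and gave 0 too. Of 59 single log2 values with 2 arrays, 14 moved by more than 1 SD of the dye swap under normexp and loess. All alternatives together moved 24 of 354, but many of these 354 values could not move that far. With 2 arrays, leaving 1 out always keeps the value within 1 SD. The series table held the same processed ratio, and genes with 1 probe had no other probe to average. Of the called values 0 changed sign, which 1 array alone could not do because a call needs 1 direction in both. Signal over background limits Ptgis, Ptgs2 and Ptger2.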
